A study of Persea americana and Macadamia integrifolia and Mangifera indica with 6 samples.

Results

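miR166 was measured here as the part of the small RNA profile of avocado (Persea americana), macadamia (Macadamia integrifolia) and mango (Mangifera indica) leaves that aligned to miR166 sequences of Arabidopsis and rice. All entries of the abundance values whose name holds miR166 were taken, whatever their level, which gave 21 of 123 entries, 8 from Arabidopsis and 13 from rice. Entries that never differed over the 6 libraries were taken as 1 sequence, which left 8 distinct miR166 sequences of 53 in all. The groups were mature, already flowering avocado cv. Hass (10 years) with juvenile avocado (1 month), mature macadamia cv. HAES741 (10 years) with juvenile macadamia (1 month), and mature mango cv. Kensington Pride (5 years) with juvenile mango (1 month). Each group was 1 library of young, fully expanded leaves. The mature leaves came from field trees, which for avocado were grafted, and the juvenile leaves from seedlings raised in a nursery or glasshouse, so age and growing place cannot be told apart. Levels are RPM, counts scaled to the total of 20 to 24 nt reads, and the smallest depth that makes every value a whole number of reads was 7509125 in mature avocado, the deepest library, and 1141472 in juvenile mango, the shallowest.

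In plants, miR166 and its near relative miR165 guide the cleavage of transcripts of the class III HD-ZIP transcription factors, which in Arabidopsis include PHABULOSA, PHAVOLUTA and REVOLUTA. These factors specify the upper side of the leaf, maintain the shoot meristem and pattern the vascular tissue, and miR166 keeps them out of the lower side of the leaf. The guide strand comes from the 3p arm of the hairpin, while the 5p arm is usually the passenger strand that is discarded. The class III HD-ZIP transcripts themselves were not analysed here, and the values held no entry for miR165.

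The 8 distinct sequences divided unevenly between both arms. The first, called miR166a-3p here, stood for 13 entries with the same values, 7 from Arabidopsis (miR166a-3p to miR166g) and 6 from rice. A second guide sequence was shared by 2 rice entries, osa-miR166g-3p and osa-miR166h-3p, and is called osa-miR166g/h-3p. The other guide-side sequences were the rice entries osa-miR166m, which names no arm and was counted with 3p, osa-miR166e-3p and osa-miR166k-3p. The passenger side held osa-miR166d-5p, osa-miR166b-5p and ath-miR166e-5p.

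Summed over the guide-side sequences, miR166 was at 2564 RPM in mature and 6736 RPM in juvenile avocado, at 835 RPM in mature and 2202 RPM in juvenile macadamia, and at 4976 RPM in mature and 1574 RPM in juvenile mango. Juvenile avocado was thus the highest library and mature macadamia the lowest, 8.06-fold apart. The exact (Clopper-Pearson) 95% intervals of neighbours in that order did not overlap, but they cover counting error only, and PCR copies are not independent molecules. With 1 library per group there was no spread between trees to set beside these differences, and in leaf RNA fewer cells with miR166 and less miR166 per cell cannot be told apart.

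Among the 20 families, miR166 ranked from the fourth place to the seventh. It was the fourth family in mature mango, between miR167 (15327 RPM) and miR160 (3889 RPM), and the fifth in juvenile mango. In avocado it was the fifth family in mature leaves, next below miR172 (5778 RPM), and the seventh in juvenile leaves, next below miR157 (7146 RPM). In macadamia it was the sixth in mature and the seventh in juvenile leaves, next below miR162 both times (1457 and 2290 RPM). Of all listed miRNA reads, both arms together took 5.12% in mature and 6.20% in juvenile avocado. In macadamia they took 2.18% in mature and 3.35% in juvenile leaves, and in mango 3.34% in mature and 2.50% in juvenile leaves.

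miR166a-3p, the sequence that Arabidopsis and rice share, carried most of the guide reads in every library. It was at 1859 RPM in mature and 4480 RPM in juvenile avocado, at 732 RPM in mature and 1661 RPM in juvenile macadamia, and at 4933 RPM in mature and 1564 RPM in juvenile mango. For this sequence alone mature mango, not juvenile avocado, was the highest library, and the counting intervals of juvenile macadamia and juvenile mango overlapped. Its share of the guide reads was 72.5% in mature and 66.5% in juvenile avocado, 87.6% in mature and 75.4% in juvenile macadamia, and 99.1% in mature and 99.3% in juvenile mango.

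osa-miR166g/h-3p made up nearly all the remaining guide reads in avocado and macadamia and was almost missing from mango. Its level was 699.8 RPM (5255 reads) in mature and 2246 RPM (10343 reads) in juvenile avocado, 101 RPM (174 reads) in mature and 532 RPM (3838 reads) in juvenile macadamia, and 9.30 RPM (42 reads) in mature and 2.63 RPM (3 reads) in juvenile mango. All 4 avocado and macadamia libraries therefore lay above both mango libraries, with no overlap of their counting intervals, while the mango intervals overlapped with each other. Of the guide reads it held 27.3% (95% interval 26.7 to 27.9) in mature and 33.3% (32.8 to 33.9) in juvenile avocado, 12.1% (10.5 to 13.9) in mature and 24.1% (23.5 to 24.8) in juvenile macadamia, and 0.187% (0.135 to 0.253) in mature and 0.167% (0.0344 to 0.487) in juvenile mango.

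osa-miR166m was a minor guide sequence in all species. It had 5.19 RPM (39 reads) in mature and 10.6 RPM (49 reads) in juvenile avocado, 1.75 RPM (3 reads) in mature and 7.48 RPM (54 reads) in juvenile macadamia, and 32.1 RPM (145 reads) in mature and 7.89 RPM (9 reads) in juvenile mango. Mature mango stood above the rest, as it did for miR166a-3p, and the counting intervals of the other neighbours in the order overlapped. As a percent of the miR166a-3p reads, osa-miR166m amounted to 0.279% in mature and 0.237% in juvenile avocado, 0.239% in mature and 0.450% in juvenile macadamia, and 0.651% in mature and 0.504% in juvenile mango.

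**Figure D1:**
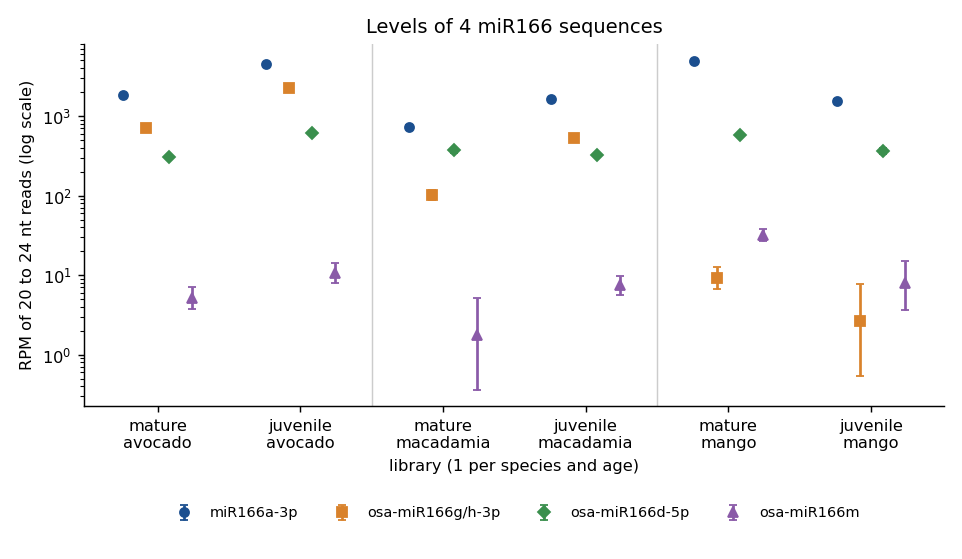
Level of the 4 miR166 sequences with most reads, in RPM of 20 to 24 nt reads on a log scale, in the 6 libraries, with mature left of juvenile leaves within each species. Points are single libraries and bars are exact 95% counting intervals, mostly smaller than the points. miR166a-3p lies highest in every library, from 732 to 4933 RPM, and osa-miR166g/h-3p drops to 9.30 and 2.63 RPM in mature and juvenile mango.

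Mature avocado and macadamia leaves had less guide miR166 than juvenile leaves, and mature mango leaves had more. In avocado the mature level was lower by a factor of 2.63 (95% counting interval 2.58 to 2.67), and in macadamia by a factor of 2.64 (2.50 to 2.78). In mango it was 3.16-fold higher (3.01 to 3.32). On the log2(RPM + 1) scale the ratios of mature over juvenile leaves were -1.39, -1.40 and 1.66. A change was called at 2-fold on that scale, for any family that reached 10 RPM at either age. By this rule 53.3% of the 15 avocado families and 33.3% of the 18 macadamia families were lower in mature leaves, and 31.2% of the 16 mango families were higher, so a change like that of miR166 was common in these pairs of libraries. miR166 was the eighth of 15 families in avocado counted from the lowest ratio, the sixth of 18 in macadamia and the thirteenth of 16 in mango.

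The median family had a log2 ratio of -1.39 in avocado, -0.53 in macadamia and -0.05 in mango, and the avocado median is miR166 itself. Measured from the median of the other families, miR166 had -0.31 in avocado, -0.98 in macadamia, and 2.21 in mango on the log2 scale. Taken as a share of the listed miRNAs, the avocado, macadamia and mango values were -0.31, -0.95 and 0.56. The directions were thus the same on these scales, but the avocado and macadamia differences were under 2-fold on both, and the mango difference was under 2-fold on the last.

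Within the family, the sequences did not shift with age by equal amounts. miR166a-3p had log2 ratios of -1.27 in avocado, -1.18 in macadamia and 1.66 in mango, and osa-miR166g/h-3p had -1.68 in avocado and -2.38 in macadamia. The mango fold of osa-miR166g/h-3p was 3.54 (95% interval 1.13 to 17.8) and rests on 3 juvenile reads. osa-miR166m had log2 ratios of -0.91 in avocado, -1.63 in macadamia and 1.90 in mango. Its macadamia ratio rests on 3 mature reads, with neither library at 10 RPM, and its mango ratio on 9 juvenile reads. Measured from the median of the other families, the avocado ratio was -0.19 for miR166a-3p, -0.60 for osa-miR166g/h-3p and 0.17 for osa-miR166m, so that only the last of these changed sign.

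Of the miR166 sequences with at least 10 RPM in 1 or both libraries of a species, 3 of 4 were at least 2-fold lower in mature avocado, beside 50% of the 34 distinct sequences of all families. In macadamia 2 of 3 were lower, beside 32.4% of 34, and in mango 2 of 3 were higher, beside 37.9% of 29. These counts leave out the sequences at lower levels, and the members share their libraries, so they are not replicates.

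**Figure D2:**
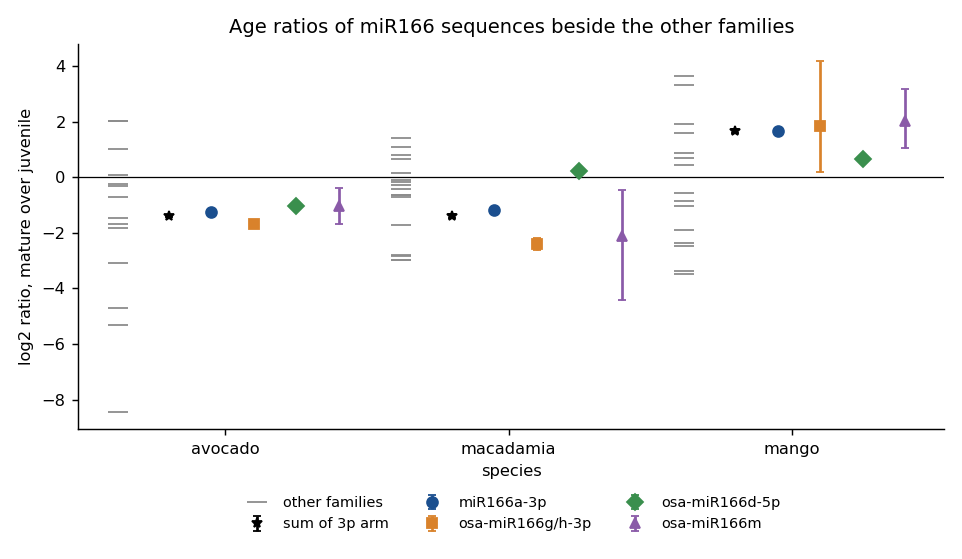
Log2 ratio of mature over juvenile leaves in each species for the summed 3p arm and 4 miR166 sequences, from plain RPM with exact 95% counting intervals, beside the other families with at least 10 RPM, shown as grey dashes on the log2(RPM + 1) scale. The guide sequences lie below 0 in avocado and macadamia and above 0 in mango, whereas osa-miR166d-5p lies below 0 only in avocado. The avocado points lie near the middle of the grey dashes.

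The balance of both guide sequences does not depend on how the libraries were scaled, since both are read from 1 library. As a percent of the miR166a-3p reads, osa-miR166g/h-3p amounted to 37.6% in mature and 50.1% in juvenile avocado, and to 13.8% in mature and 32.0% in juvenile macadamia. The ratio in mature leaves was 0.75 times that in juvenile leaves in avocado (95% interval 0.72 to 0.78) and 0.43 times in macadamia (0.37 to 0.51). In mango it was 0.189% in mature and 0.168% in juvenile leaves, 1.12 times (0.36 to 5.66), an interval too wide at 3 juvenile reads to show a shift of that size. For osa-miR166m against miR166a-3p the intervals of this ratio held 1 in all species, so no shift stood out from counting error. They were 0.75 to 1.83 in avocado, 0.11 to 1.64 in macadamia and 0.66 to 2.88 in mango. All intervals of these ratios cover counting error only.

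The passenger arm was read almost entirely as osa-miR166d-5p, which held from 99.1% to 99.8% of the 5p reads. Its level was 301 RPM in mature and 611 RPM in juvenile avocado, 372 RPM in mature and 321 RPM in juvenile macadamia, and 573 RPM in mature and 363 RPM in juvenile mango. It varied much less than the guide, with 2.03-fold between the highest library (juvenile avocado) and the lowest (mature avocado). The counting intervals overlapped for all neighbours in the order except mature mango and mature macadamia.

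By age, osa-miR166d-5p was lower in mature avocado by a factor of 2.03 (95% interval 1.92 to 2.15). It was 1.16-fold higher in mature macadamia (1.06 to 1.27) and 1.58-fold higher in mature mango (1.42 to 1.76). On the log2(RPM + 1) scale these are -1.02, 0.21 and 0.66, and measured from the median of the other families the avocado ratio turns to 0.061. In macadamia the passenger arm and the guide arm therefore went in opposite directions between the same libraries, though the passenger difference was under 2-fold.

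As a share of the reads of both arms, 5p made up 10.5% (95% interval 10.1 to 10.9) in mature and 8.39% (8.10 to 8.69) in juvenile avocado. In macadamia it was 30.8% (28.9 to 32.9) in mature and 12.8% (12.3 to 13.3) in juvenile leaves, and in mango 10.3% (9.97 to 10.7) in mature and 18.8% (17.2 to 20.5) in juvenile leaves. The ratio of 5p to 3p reads in mature leaves was thus 1.28 times that in juvenile leaves in avocado (1.21 to 1.36), 3.04 times in macadamia (2.74 to 3.38) and 0.50 times in mango (0.45 to 0.56). This ratio, too, is free of the scaling of the libraries. In each species the library with fewer miR166 reads had the larger 5p share. Guide reads were most of the miR166 reads in every library, so this total and the 5p share are not independent. There were 21520 miR166 reads in mature and 33870 in juvenile avocado, and 2075 in mature and 18222 in juvenile macadamia. Mango had 25067 in mature and 2212 in juvenile leaves. By total depth the shallower library had the larger 5p share in macadamia and mango. In avocado it was the deeper one, with 7509125 reads of 20 to 24 nt in mature and 4606100 in juvenile leaves. The part of depth in this result was not tested.

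The 5p share of miR166 was high for the families listed here with both arms, which were 6 in number. In avocado no other of these families had more than 5.11% of its reads on the lesser arm in mature or 3.02% in juvenile leaves, and in mango none had more than 0.404% in mature or 0.652% in juvenile leaves. In macadamia 1 family, miR160, had a larger share on the arm that was lesser over all libraries (92.8% in mature and 92.7% in juvenile leaves). Its other arm was at 3.49 RPM in mature and 3.33 RPM in juvenile macadamia. Next came miR390, with 12.0% on the lesser arm in mature and 8.97% in juvenile macadamia, which in juvenile leaves is not far below the 12.8% of miR166. These shares describe the listed sequences and were not tested against each other.

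**Figure D3:**
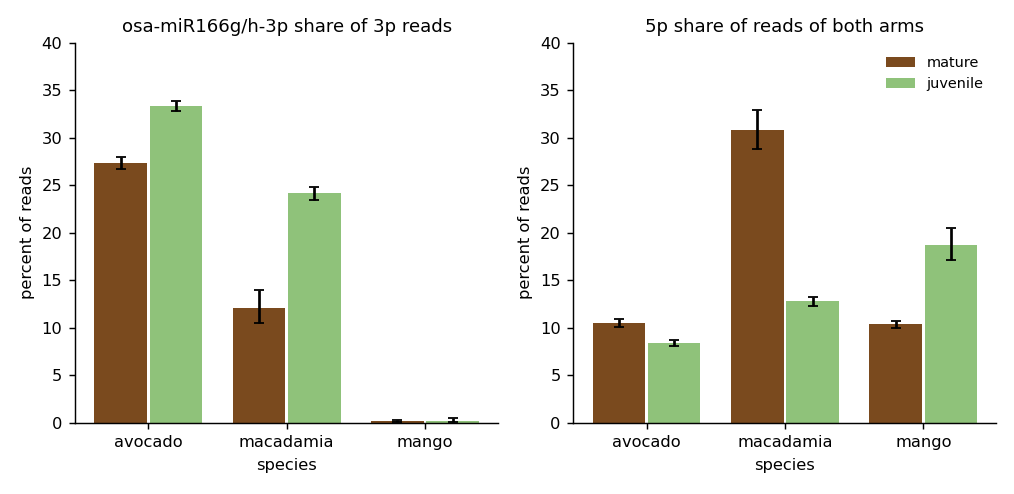
Left, osa-miR166g/h-3p as a percent of the guide-side miR166 reads, and right, 5p reads as a percent of the miR166 reads of both arms, for mature (brown) and juvenile (green) leaves of each species. Bars are single libraries and whiskers are exact 95% counting intervals. The second guide sequence is under 1% in mango at both ages, and the 5p share is highest, at 30.8%, in mature macadamia.

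The remaining 4 sequences had few reads, from 0 to 27 per library. The limit of detection was taken as 3 reads (from 0.400 RPM in mature avocado to 2.63 RPM in juvenile mango). osa-miR166b-5p had 1 read in mature and 27 in juvenile avocado, 44.0-fold lower in mature leaves with a 95% interval of 7.26 to 1802. In macadamia it had 0 reads in mature and 1 in juvenile leaves, and in mango 0 in mature and 1 in juvenile leaves. osa-miR166e-3p had 3 reads in mature and 1 in juvenile avocado, 1 in mature and 11 in juvenile macadamia, and 6 in mature and 0 in juvenile mango. ath-miR166e-5p had nearly the same reads as osa-miR166e-3p, with 3 in mature and 0 in juvenile avocado, 1 in mature and 11 in juvenile macadamia, and 4 in mature and 0 in juvenile mango. osa-miR166k-3p was seen with 1 read in juvenile macadamia and 1 in mature mango and with 0 reads elsewhere. A count of 0 allows up to 3 reads, and no fold is given for pairs with a library at 0 or with both at or under 3 reads. The macadamia pair of osa-miR166e-3p, and likewise that of ath-miR166e-5p, was 2.62-fold lower in mature leaves. The interval was 0.381 to 113, so no difference stood out from counting error.

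Across the species, taken as 3 pairs of libraries, no shared age difference of miR166 was detected. limma was fitted to log2(RPM + 1) of the 13 families that reached 10 RPM in each species, blocked by species. The estimate for miR166 was -0.38 (SE 0.91, 95% interval -2.24 to 1.48), with a limma adjusted p of 0.73, and miR166 was lower in mature leaves of 2 of the 3 species. The SE and interval rest on a spread pooled over the 13 families, with 26 degrees of freedom where miR166 alone has 2. They do not describe the spread of miR166 itself. Of these families 15.4% were called. The mean of the 3 log2 ratios was -0.38 ± 1.76 (SD, n = 3), and an exact two-sided sign-flip permutation test gave p = 1.00, where the smallest p it can give is 0.25. Without mango the limma log2 fold change was -1.40 (adjusted p = 0.21), and without avocado or macadamia it was 0.13 both times (adjusted p = 0.89 and 0.93 from limma), so the sign of the mean rests on single species.

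Among distinct sequences, 2 of the 8 of miR166 reached 10 RPM in every species, and 0 of them were called (0 also at an unadjusted p under 0.05 in limma), beside 13.0% of the 23 sequences tested. The limma estimate was -0.26 for miR166a-3p (SE 0.89, adjusted p = 0.84) and -0.05 for osa-miR166d-5p (SE 0.89, adjusted p = 0.96). Their equal SE is again a pooled one, over the 23 sequences. osa-miR166g/h-3p was not tested there, since it stayed below 10 RPM in mango. With no filter on level its log2 fold change was -0.85 (adjusted p = 0.73 from limma).

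Beside miR166, other families act on leaf polarity and organ shape. Of 8 such families (miR160, miR164, miR165, miR167, miR319, miR390, miR394 and miR396) 7 were among the values, all but miR165. On the arm counted for each family, 6 in avocado, 5 in macadamia and 6 in mango had at least 10 RPM. In macadamia miR160 did not, but 92.8% of its reads in mature and 92.7% in juvenile leaves lay on its other arm. At least 2-fold lower in mature leaves were 3 in avocado, 2 in macadamia and 3 in mango, beside 53.3%, 33.3% and 37.5% of all families. The 2 that were higher were both in mango, beside 31.2% of all families, so these shares lay near those of all families. Their median log2 ratios were -0.89, -0.64 and -0.94 in avocado, macadamia and mango, beside -1.39, -0.53 and -0.05 for all families. miR390, which triggers the TAS3 tasiRNAs that restrict auxin response factors to the lower leaf side, was at 15.1 RPM in mature and 58.7 RPM in juvenile mango, a log2 ratio of -1.89, and so went the other way from miR166 there. In avocado miR390 had -1.82 and in macadamia -2.85.

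miR167 and miR160, which target auxin response factor transcripts, were the families of this list that were higher in mature mango together with miR166, with log2 ratios of 1.60 and 3.32. miR164, which targets CUC-type NAC transcripts at organ boundaries, had a log2 ratio of -1.67 in avocado, -0.64 in macadamia, and -1.02 in mango, past 2-fold in avocado and mango. miR394, which targets LCR, had -0.33, -1.74 and -2.47, past 2-fold in macadamia and mango, and miR396, which targets GRF transcripts, had -1.45, -0.42 and -0.85, past 2-fold in avocado. miR319, which targets TCP transcripts, stayed under 10 RPM in every library. In limma 0 of the 5 families of the list that were tested were called, beside 15.4% of all those tested, too few families to set them apart. They had limma adjusted p-values from 0.099 for miR390 to 0.73 for miR167, and 1 of them, miR390, had an unadjusted p under 0.05.

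Over the 6 libraries, miR167 had the profile most like that of miR166, with a Pearson r of 0.70 and a Spearman rho of 0.77 on log2(RPM + 1). It was at 11507 RPM in mature and 10936 RPM in juvenile avocado, 105 and 118 RPM in mature and juvenile macadamia, and 15327 and 5052 RPM in mature and juvenile mango. miR390 followed with r of 0.54 (rho 0.66) and miR396 with r of 0.45 (rho 0.37). The 6 points are 3 pairs from the same species, so these values, which were computed for 19 families, mostly describe differences between species and are given without a test.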

How the data were processed

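Small RNA was sequenced from leaves of 3 species, as juvenile and mature plants, 1 library each. Per the study's methods, the authors removed adapters (Trim Galore) and ribosomal reads (BBduk) and aligned the rest with SCRAM to miRBase entries of Arabidopsis and rice. Their versions were not given in the sources used here. RPM is the unit of the deposited values, relative to the total of reads of 20 to 24 nt, to 3 decimals. Reads that match neither reference are missing from them, and whether any read was counted for several sequences was not tested.

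Reads were derived as the smallest depth at which all distinct values are whole within rounding, so a whole multiple of that depth would serve as well. That 220 of 220 values are whole follows from this rule and does not test the depth. All read numbers and counting intervals depend on it. A family's value is the sum of distinct sequences on the arm with the larger total and on entries with no arm. Ratios carry exact conditional 95% intervals. limma 3.58.1 (R 4.3.3) with Benjamini-Hochberg adjustment at 0.05 pooled the spread over features, and other values came from Python 3.11.15 (numpy 2.4.6, scipy 1.17.1). The depth search, the intervals and the limma fit were also run on simulated data, as a check of the code only. Such runs are no evidence that the depths derived here are right. Nor do they show that the features of these libraries share the pooled spread. The species serve as replicates of age, and no test was made within a species. All miR166 sequences, the listed leaf families, the 3 families most like miR166 and neighbours in rank are named. Members and lists were chosen with earlier results of these data known. Rescaling to the median of the other families and shares of the listed miRNAs were added after seeing the data.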

Additional observations from a re-analysis of the deposited data

Results flagged for a closer look

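Differences between species are differences between single pairs of libraries, and none of them was tested. Guide miR166 was higher in mature mango and lower in mature avocado and macadamia, and its log2 ratio in mango lay 3.05 above the avocado ratio and 3.06 above the macadamia ratio. For the miR166a-3p sequence the mango log2 ratio exceeded the avocado one by 2.93 and the macadamia one by 2.84. For osa-miR166m, which had 9 reads in juvenile mango, mango exceeded avocado by 2.81. The passenger sequence osa-miR166d-5p was lower in mature avocado and, by under 2-fold, higher in mature macadamia and mango. Its log2 ratios lay above that of avocado by 1.23 in macadamia and by 1.68 in mango. All of these compare mature with juvenile leaves on the log2(RPM + 1) scale.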

How the results depend on the processing

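The guide log2 ratio of miR166 kept its direction under every alternative run except rescaling to the median family, which sets avocado to 0 because miR166 is that median, and gives -0.87 in macadamia. With both arms summed it was -1.36, -1.06 and 1.52 in avocado, macadamia and mango. With the most abundant sequence alone it was -1.27 in avocado and -1.18 in macadamia, and with identical entries counted each time -1.29 and -1.22. As a share of the listed miRNAs it was -0.31, -0.95 and 0.56, and from the median of the other families -0.31, -0.98 and 2.21. In avocado, rescaling to the median family, which is miR166, changed the sign of miR166a-3p (0.12), osa-miR166d-5p (0.37) and osa-miR166m (0.48), the last of which was under 2-fold as reported. From the median of the other families osa-miR166d-5p (0.061) and osa-miR166m (0.17) changed sign and miR166a-3p (-0.19) did not. The other values for single sequences kept their direction.

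The shared log2 fold change from limma, called under no alternative, changed sign with rescaling for the family (0.28), miR166a-3p (0.39) and osa-miR166d-5p (0.61). Leaving out 1 species gave -1.40 to 0.13 for the family, -1.23 to 0.24 for miR166a-3p and -0.40 to 0.44 for osa-miR166d-5p. Over all alternatives limma called 0 to 3 families (2 in the reported fit) and 0 to 5 sequences (3 in the reported fit). The cause was not tested.

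Shares change by construction when identical entries count each time. The 5p share is then, for mature and juvenile leaves of avocado, macadamia and mango, 1.17% and 0.974%, 3.69% and 1.40%, and 0.887% and 1.76%. That of osa-miR166g/h-3p is 5.47% and 7.16%, 2.08% and 4.69%, and 0.0290% and 0.0258% in the same order. Arabidopsis entries alone hold no abundant 5p sequence, and give 0.0215% and 0%, 0.0795% and 0.0917%, and 0.0180% and 0%. With both arms summed miR166 ranks 6 in juvenile avocado and juvenile macadamia. By Spearman rho, 2 of the 3 families most like miR166 stay. The planned count test on recovered reads was not run, because too few low values were present to accept the reads as recovered. Libraries were paired by species in limma and in the sign-flip test. The labels give 1 library per group and no replicate numbers to pair by. Depth limits the sequences under 3 reads, above all in juvenile mango and mature macadamia.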
